A study of Homo sapiens with 6 samples.

Results

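The genes described here are 10 transcription factors that cells use to answer growth signals and stress: FOS, FOSB, FOSL1 and FOSL2 of the FOS family, JUN, JUNB and JUND of the JUN family, and KLF4, EGR1 and MYC. They were taken by symbol from a deposited table of 20325 protein-coding genes, and all 10 were found, each as 1 gene, and all 10 passed the filter on low counts. They were measured by bulk RNA sequencing in SNU-668 cells, a human stomach cancer line, in 6 libraries. Cells of every library had been made resistant to erastin, a small molecule that blocks cystine import and so induces ferroptosis. The control group (3 libraries, genotype given as WT) received a control shRNA, and the knockdown group (3 libraries) received an shRNA against ALKBH3, an enzyme of the AlkB family that repairs methylated bases in DNA and RNA. The labels do not say whether the replicates were separate cultures, whether the cells were clones or pools, or how long after transfer of the shRNA they were harvested. The p-values therefore speak only to library-to-library spread, and that spread may be technical.

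AP-1 is a dimer of proteins with a leucine zipper next to a basic DNA-binding stretch. JUN proteins pair with each other or with FOS proteins, while FOS proteins bind DNA only as partners of JUN proteins. FOS, FOSB, JUN, JUNB and EGR1 are immediate early genes, switched on within minutes of a signal from transcription factors already in the cell, and their mRNAs are short-lived. FOSL1 and FOSL2 follow later and last longer, and FOSL1 is held high in many tumour lines by steady MAP kinase signalling. KLF4 is a zinc finger factor that marks differentiated epithelium, in the stomach and gut among other tissues, and is also 1 of the factors used to reprogram cells to pluripotency. MYC pairs with MAX and drives ribosome production and growth.

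Library totals ran from 14244932 to 17880183 counts, and ALKBH3 itself stood at 22.6 to 23.0 CPM (read counts scaled to a common library size) in the controls and at 4.52 to 5.98 CPM in the knockdown, a log2 fold change of -2.11 (adjusted p = 1.01e-10 by edgeR's quasi-likelihood F test). Pairs of libraries differed by more than counting noise, with chi-square values over their degrees of freedom of 3.05 to 10.98 within groups and 15.7 to 29.3 across groups. The control pairs gave 10.2 to 10.7 and knockdown replicate 1 gave 10.98 and 10.4 against the other 2 knockdown libraries, while knockdown replicates 2 and 3 were closer to each other (3.05). Results that rest on 1 library are given with and without it. Of 9 epithelial markers, CDH1 and CLDN3 had no read, and EPCAM (54 reads in all) and CLDN4 (67) had too few to be tested. Of the 5 tested, KRT7, KRT8 and KRT18 passed as higher in the knockdown, where 3.96% of all tested genes did. KRT19 (log2 fold change 0.16) and MUC1 (-0.11) did not pass (adjusted p = 0.841 and 0.844 by edgeR's quasi-likelihood F test). KRT8 lost its call without control replicate 1 or 2, without any 1 knockdown library and without both control replicate 2 and knockdown replicate 1 (adjusted p from 0.0727 to 0.215 in edgeR's quasi-likelihood test). The 9 summed to 159 to 182 CPM in the controls and 226 to 240.3 CPM in the knockdown, most of it from KRT18. The part of this difference in the results below was not tested. Of 11 markers of blood, endothelial, fibroblast and other cells, CD3E, MS4A1 and HBB had no read, and the sum was 211 to 254 CPM in the controls and 215 to 237 CPM in the knockdown, most of it from COL1A1 and PDGFRB. Only 4 of these markers had enough reads to be tested. None of the 4 passed, with 2 at an unadjusted p under 0.05 (8.08% and 22.2% of all tested genes). COL1A1 missed narrowly (log2 fold change -0.38, adjusted p = 0.0512 by edgeR's quasi-likelihood F test). It was lower past the threshold in 10 of 16 alternatives, DESeq2, limma-voom and several edgeR settings among them. PDGFRB went the other way (0.25, adjusted p = 0.0659 by the same test), with every knockdown library above every control. In 5 of 16 alternatives 1 marker of this list was higher past the threshold. In bulk RNA, fewer cells that express a gene and less RNA per cell cannot be told apart.

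The start regions of 4 factors are shown as the sequence on which the known signals act. KLF4 and FOSL2 are shown because they passed the test, JUN because it is the main JUN gene of these cells, and EGR1 as the classical growth factor target. Each line gives the 250 bases before the annotated start, 5′ to 3′ on the gene's strand, from RefSeq on GRCh38.p14: chr2:28392608-28392857 (plus strand), chr9:107489770-107490019 (minus), chr1:58784048-58784297 (minus) and chr5:138465229-138465478 (plus). Capitals mark matches to the motifs named below, apart from the GC box, which is left in lower case.
FOSL2: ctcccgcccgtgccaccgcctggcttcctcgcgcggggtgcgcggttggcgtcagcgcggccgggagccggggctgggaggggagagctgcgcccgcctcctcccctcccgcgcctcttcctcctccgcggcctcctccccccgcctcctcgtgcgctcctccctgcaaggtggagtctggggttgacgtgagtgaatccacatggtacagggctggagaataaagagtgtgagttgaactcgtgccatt
KLF4: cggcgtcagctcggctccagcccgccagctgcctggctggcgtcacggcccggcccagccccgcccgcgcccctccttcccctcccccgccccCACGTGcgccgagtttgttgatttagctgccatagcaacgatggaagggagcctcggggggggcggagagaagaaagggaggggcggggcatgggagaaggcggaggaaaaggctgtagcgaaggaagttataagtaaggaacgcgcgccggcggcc
JUN: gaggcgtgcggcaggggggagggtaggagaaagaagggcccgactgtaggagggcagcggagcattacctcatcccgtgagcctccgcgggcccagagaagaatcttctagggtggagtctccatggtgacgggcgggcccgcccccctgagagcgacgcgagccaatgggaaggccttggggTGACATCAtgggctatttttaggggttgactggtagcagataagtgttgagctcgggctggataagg
EGR1: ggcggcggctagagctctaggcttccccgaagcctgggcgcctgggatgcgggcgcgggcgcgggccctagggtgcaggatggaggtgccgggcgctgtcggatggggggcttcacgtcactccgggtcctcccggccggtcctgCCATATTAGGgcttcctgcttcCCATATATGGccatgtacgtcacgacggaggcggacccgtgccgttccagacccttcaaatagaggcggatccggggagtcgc
In all 9 motifs were searched on both strands in the 300 bases from 250 before to 50 after the start, for the 8 of the 10 members that the table of starts holds and for all 35116 starts in it. The variant AP-1 site TGACATCA, by which JUN protein is known to act on its own gene, begins 67 bases before the JUN start and occurs in 2.61% of all starts. The AP-1 site TGAGTCA, found in 4.95% of all starts, matched in FOSL2 alone of these 8, 4 bases past the printed stretch. The CRE site TGACGTCA (1.85% of all) matched only in JUND, and the E-box CACGTG, which MYC dimers and others bind (7.26% of all), matched only in KLF4, 157 bases before the start. EGR1 had 2 CArG boxes, the element of serum response factor, at 105 and 83 bases before the start, against 1.29% of all starts with at least 1. The TATA box TATAAA (11.5% of all) matched in FOS, FOSB and JUNB, and the GC box GGGCGG (45.0% of all) in 6 of the 8. The element TGATGCAA read by ATF4 with C/EBP partners (0.866% of all) and the EGR site GCGTGGGCG (0.795% of all) matched in none of these windows. The marked matches do not overlap one another. A match describes the letters alone.

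One factor rose and 1 fell: KLF4 was 1.85-fold higher in the knockdown and FOSL2 was 0.754 of its control level. The other 8 did not pass the test. Across all 12305 tested genes 8.08% passed, 3.96% higher and 4.12% lower (a threshold of 0.05 on the adjusted p of edgeR's quasi-likelihood F test). By the same test 22.2% of them had an unadjusted p under 0.05. When libraries were scaled by their totals alone, the split of all genes turned from 487 higher and 507 lower to 610 higher and 417 lower. The median log2 fold change of the 10 was 0.15, beside 0.01 for all tested genes. The groups did not overlap in 5 of the 10 (KLF4 and JUNB higher, FOSL2, JUN and FOS lower), while 26.6% of all tested genes had groups that did not overlap.

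**Figure D1:**
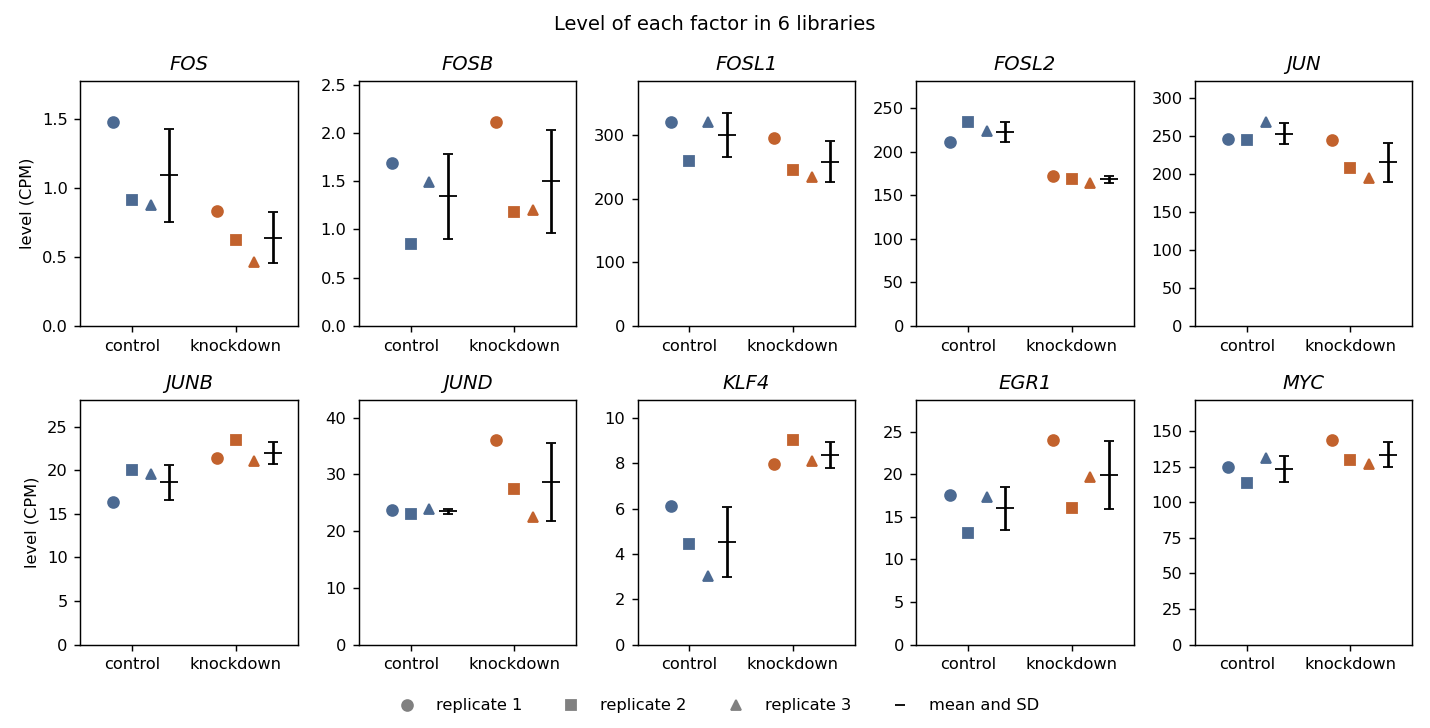
Level of each factor in CPM (y axis, from 0, own scale per gene) in the 3 control and the 3 knockdown libraries, 1 symbol per replicate number, with the group mean and SD. KLF4 lies above and FOSL2 below all controls, and knockdown replicate 1 is the highest knockdown library for FOSL1, JUN, JUND, EGR1 and MYC.

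JUN (ENSG00000177606, hg19 chromosome 1, 59246465 to 59249785, minus strand, without introns) encodes the AP-1 subunit that activates most strongly. It stood at 246, 245 and 269 CPM in the controls and at 245, 208 and 195 CPM in the knockdown libraries. The groups do not overlap, but only barely, since knockdown replicate 1 lies just under control replicate 2. The mean went from 253 ± 13.6 to 216 ± 25.7 CPM (SD, n = 3 each), with a log2 fold change of -0.23, an SE of 0.0858 and an unadjusted 95% interval from -0.41 to -0.05 (adjusted p = 0.103 by edgeR's quasi-likelihood F test). Without knockdown replicate 1 it passed, at -0.33 (adjusted p = 0.0153 by edgeR's quasi-likelihood F test), as it did without both that library and control replicate 2 (-0.35, adjusted p = 0.0176). Over the 16 alternatives the adjusted p ran from 0.0153 to 0.410.

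JUNB (ENSG00000171223, hg19 chromosome 19, 12902310 to 12904124, plus strand) encodes a weaker activator that can hold JUN back. It was at 16.3, 20.0 and 19.6 CPM in the controls and at 21.4, 23.5 and 21.1 CPM in the knockdown. Every knockdown library lay above every control, yet the difference did not pass (log2 fold change 0.24, SE 0.116, 95% interval -0.0015 to 0.48, adjusted p = 0.228 by edgeR's quasi-likelihood F test). JUNB overlaps HOOK2 in the table, and whether reads were counted by strand is not given in the sources used here, so some of its reads may belong to that neighbour.

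JUND (ENSG00000130522, hg19 chromosome 19, 18390563 to 18392432, minus strand) encodes the JUN protein that most cells keep at a steady level. It was at 23.7, 22.9 and 23.8 CPM in the controls and at 35.98, 27.3 and 22.5 CPM in the knockdown. The controls were tight (SD 0.464), while the knockdown libraries spread around them, with replicate 1 far above and replicate 3 below. The log2 fold change was 0.29 (SE 0.131) (adjusted p = 0.193 by edgeR's quasi-likelihood F test). It was 0.09 without knockdown replicate 1 and 0.43, past the threshold, without knockdown replicate 3 (adjusted p = 0.0454 by edgeR's quasi-likelihood F test).

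Set against each other within a library, the JUN genes held other proportions in the knockdown. Levels per length were taken as TPM, which scales counts by length, with exon lengths from GENCODE 29. JUN made up 76.2%, 74.8% and 76.3% of the summed TPM of the 3 JUN genes in the controls and 69.0%, 68.1% and 69.9% in the knockdown libraries. Here the groups were far apart for their spread (75.8 ± 0.849% against 69.0 ± 0.916%), and knockdown replicate 1 lay between the others of its group. The sum itself overlapped between the groups, at 240.2 to 250.3 TPM in controls and 209 to 268 TPM in the knockdown. The share of JUND was 12.8% to 13.9% in the controls and 15.3% to 19.3% in the knockdown, and that of JUNB 9.85% to 11.9% and 11.7% to 14.9%, with knockdown replicate 1 under control replicate 2 for JUNB. In raw counts, which need no length and no scaling, there were 15.1, 12.2 and 13.7 JUN reads per JUNB read in the controls and 11.4, 8.88 and 9.23 in the knockdown. For JUN over JUND the ratios were 10.4, 10.7 and 11.3 against 6.80, 7.62 and 8.66. Both ratios were lower in every knockdown library than in any control. For JUN over JUNB this follows from the single genes, since JUN was lower and JUNB higher in every knockdown library. It therefore adds nothing to them. How often such ratios separate the groups among other genes was not tested. These ratios were chosen after the values were seen and are given without a test.

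**Figure D2:**
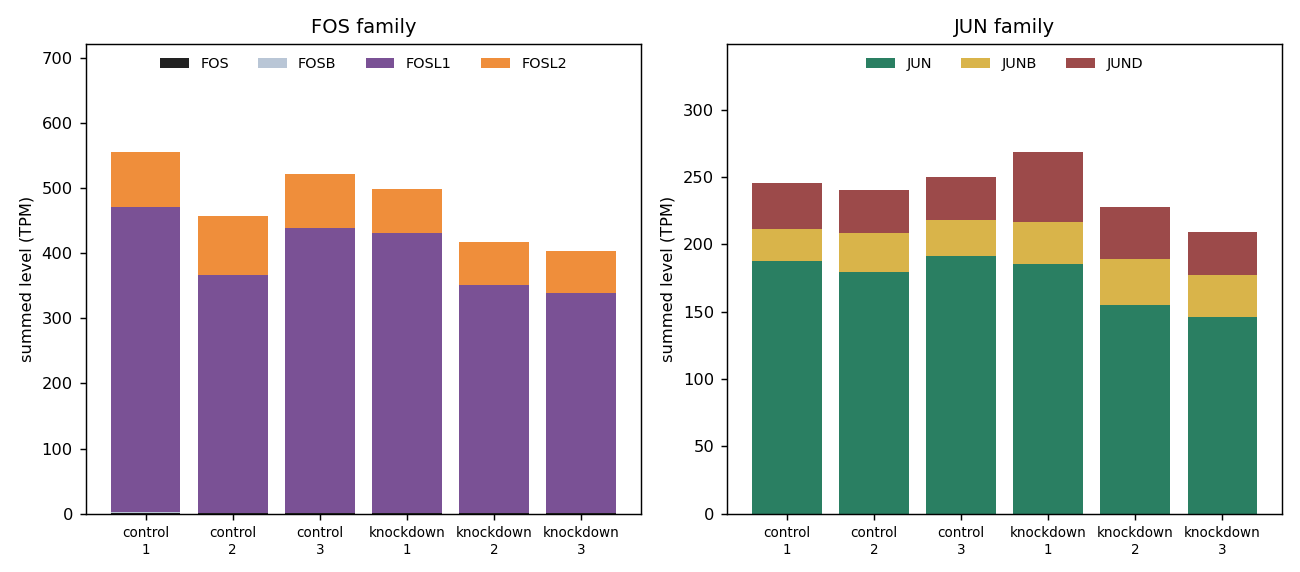
Summed level in TPM (y axis, from 0) of the FOS family (left) and the JUN family (right) in each of the 6 libraries (x axis), with the part of each gene stacked. FOSL1 and JUN fill most of each bar, FOS and FOSB are too low to see, and the JUN part of the right bars is 74.8% to 76.3% in controls and 68.1% to 69.9% in the knockdown.

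FOSL1 (ENSG00000175592, hg19 chromosome 11, 65659520 to 65668044, minus strand) encodes FRA1, a FOS protein without the long activation domain of FOS. Per length it was the highest of the 10, at 424 ± 52.9 TPM in the controls, where it ranked 297 among the 19508 genes with a length. It stood at 320.0, 259 and 320.4 CPM in the controls and at 295, 244 and 234 CPM in the knockdown. Control replicate 2 fell among the knockdown libraries, so the groups overlapped. The log2 fold change was -0.22 (SE 0.0955) and an unadjusted 95% interval from -0.41 to -0.02 (adjusted p = 0.178 by edgeR's quasi-likelihood F test). It passed when control replicate 2 was left out (-0.31, adjusted p = 0.0417), when knockdown replicate 1 was (-0.32, adjusted p = 0.0344) and when both were (-0.42, adjusted p = 0.00445), all by edgeR's quasi-likelihood test.

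FOSL2 (ENSG00000075426, hg19 chromosome 2, 28615315 to 28640179, plus strand) encodes FRA2, the other late FOS protein. It was at 211, 234 and 224 CPM in the controls and at 172, 168 and 164 CPM in the knockdown. The knockdown libraries lay close together and well below every control. FOSL2 fell by 0.41 on the log2 scale, from 223 ± 11.5 to 168 ± 4.09 CPM (SD, n = 3 each), with an SE of 0.0763 and a 95% interval from -0.56 to -0.25 (adjusted p = 9.49e-04 by edgeR's quasi-likelihood F test). The call held in all 16 alternatives, with log2 fold changes from -0.45 to -0.37 and adjusted p from 6.15e-06 to 0.0116. By the size of its p FOSL2 ranked 200 among 12305 genes.

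FOS and FOSB, the founding members of the early response, were close to silent. FOS (ENSG00000170345, hg19 chromosome 14, 75745477 to 75748933, plus strand) had 21, 14 and 13 reads in the controls and 15, 11 and 7 reads in the knockdown, or 0.880 to 1.48 and 0.465 to 0.834 CPM. Its groups did not overlap in CPM, but with so few reads the interval was wide: a log2 fold change of -0.74 with 95% limits of -1.60 and 0.12 (adjusted p = 0.308 by edgeR's quasi-likelihood F test). FOSB (ENSG00000125740, hg19 chromosome 19, 45971253 to 45978437, plus strand) had 24, 13 and 22 reads in the controls and 38, 21 and 18 in the knockdown. Its groups overlapped, with a log2 fold change of 0.17 and 95% limits of -0.56 and 0.91 (adjusted p = 0.827 by edgeR's quasi-likelihood F test). The sign turned when control replicate 2 was left out (-0.07), when knockdown replicate 1 was (-0.17) and when both were (-0.41). FOSB overlaps ERCC1 on the other strand in the table, so its few reads are uncertain in the same way as those of JUNB. FOS made up 0.104% to 0.245% and FOSB 0.0871% to 0.204% of the summed TPM of the FOS family, which came almost wholly from FOSL1 (80.1% to 86.0%) and FOSL2 (13.6% to 19.6%). In the FOS family the share of no gene separated the groups.

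**Figure D3:**
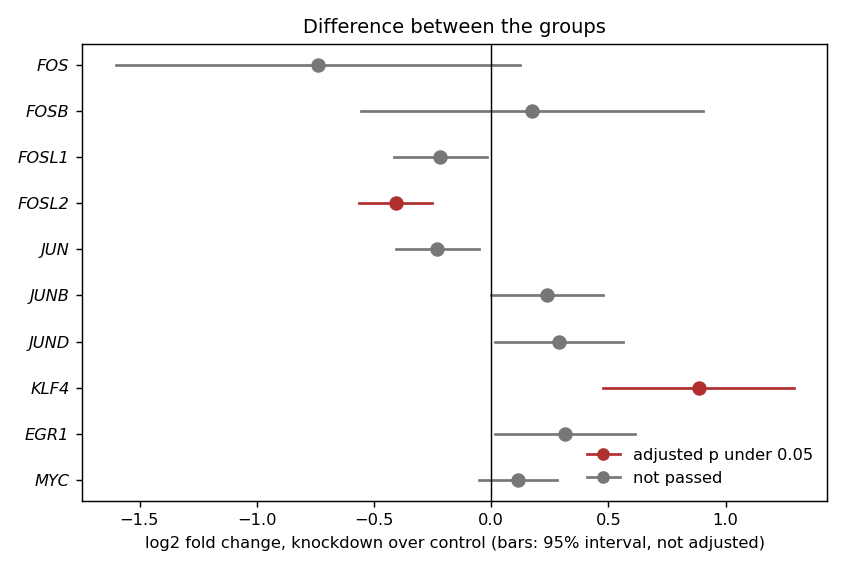
Log2 fold change of knockdown over control (x axis) for the 10 factors (y axis), with unadjusted 95% intervals from edgeR's fit and red for adjusted p under 0.05. FOSL2 at -0.41 and KLF4 at 0.88 are the red points, and the interval of FOS is the widest, from -1.60 to 0.12.

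KLF4 (ENSG00000136826, hg19 chromosome 9, 110247133 to 110252763, minus strand) was a low transcript that rose. It had 87, 68 and 45 reads in the controls and 143, 160 and 122 in the knockdown, or 6.13, 4.45 and 3.05 CPM against 7.95, 9.02 and 8.11 CPM. The knockdown libraries lay close together, and the lowest of them lay above the highest control, while the controls spread by a factor of 2.01. KLF4 rose from 4.54 ± 1.54 to 8.36 ± 0.576 CPM (SD, n = 3 each), a log2 fold change of 0.88 (SE 0.197) and a 95% interval from 0.48 to 1.29 (adjusted p = 0.00497 by edgeR's quasi-likelihood F test). The call held in all 16 alternatives, with log2 fold changes from 0.67 without control replicate 3 to 1.15 without control replicate 1, and adjusted p from 8.45e-05 to 0.0452. Per length KLF4 was at 4.06 ± 1.51 TPM in the controls and 7.57 ± 0.472 TPM in the knockdown, low among the genes of these cells (rank 10042 and 9004 of 19508).

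EGR1 (ENSG00000120738, hg19 chromosome 5, 137801179 to 137805004, plus strand), a zinc finger factor induced by serum response factor and ETS proteins, was at 17.6, 13.1 and 17.3 CPM in the controls and at 24.0, 16.1 and 19.7 CPM in the knockdown. Knockdown replicate 2 lay among the controls. The log2 fold change was 0.32 (SE 0.144) and an unadjusted 95% interval from 0.02 to 0.62 (adjusted p = 0.194 by edgeR's quasi-likelihood F test). It was 0.16 without knockdown replicate 1 and 0.03 without both that library and control replicate 2.

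MYC (ENSG00000136997) was at 125, 113 and 131 CPM in the controls and at 144, 130 and 127 CPM in the knockdown. The groups overlapped, and the log2 fold change was 0.12 (SE 0.0806) (adjusted p = 0.431 by edgeR's quasi-likelihood F test). Its unadjusted 95% interval, from -0.05 to 0.28, holds no difference larger than 0.28 in either direction. MYC ranked 1513 of 19508 per length in the controls, at 107 ± 7.59 TPM.

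In order of their control level per length, the 10 factors were FOSL1 (424 TPM), JUN (186 TPM), MYC (107 TPM), FOSL2 (85.3 TPM), JUND (32.8 TPM), JUNB (26.6 TPM), EGR1 (13.3 TPM), KLF4 (4.06 TPM), FOS (0.973 TPM) and FOSB (0.630 TPM). The ranges of neighbours over the 3 control libraries did not overlap, with the exception of FOS (0.753 to 1.36 TPM) and FOSB (0.397 to 0.820 TPM), although FOS was the higher in each control library. In the knockdown the ranges of JUND (32.1 to 51.7 TPM) and JUNB (30.8 to 33.98 TPM) overlapped, although JUND was the higher in each library. FOSB (mean 0.717 TPM) then stood above FOS (0.579 TPM), with ranges that overlapped.

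Knockdown replicate 1 decided several of these values. It was the highest knockdown library for FOS, FOSB, FOSL1, FOSL2, JUN, JUND, EGR1 and MYC, whether the group as a whole lay above or below the controls, and the lowest for KLF4. Without it 3 members fell (JUN, FOSL1 and FOSL2) and KLF4 rose, against 1 and 1 with all libraries. Without control replicate 2 there were 2 lower members, and without knockdown replicate 3 there were 2 higher.

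**Figure D4:**
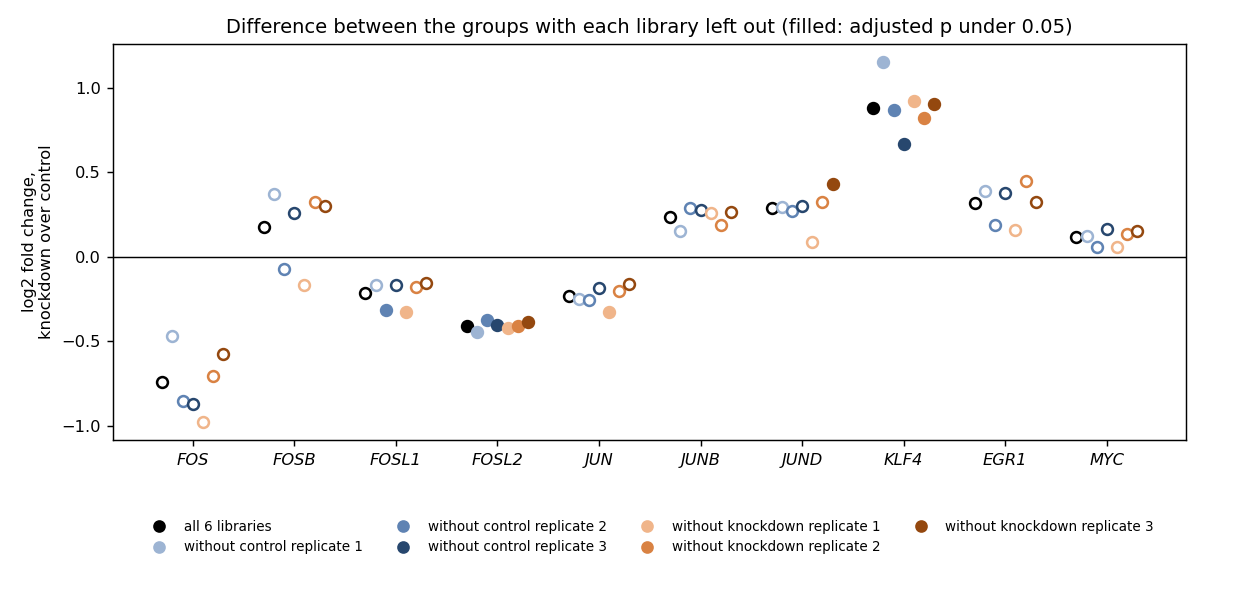
Log2 fold change of knockdown over control (y axis) for each factor (x axis) with all 6 libraries (black) and with each library left out in turn (colours), filled where the adjusted p was under 0.05 in edgeR's quasi-likelihood test. FOSL2 and KLF4 stay filled throughout, JUN and FOSL1 become filled without knockdown replicate 1, and FOSB crosses 0.

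By the correlation of log2 CPM over the 6 libraries, the genes most like FOSL2 (mean level of 10 CPM or more) were SAP130 (r = 0.999), GPR153 (r = 0.991) and RNF26 (r = 0.991). Those most like KLF4 were PTPRM (r = 0.996), PITPNA (r = 0.990) and CROT (r = 0.988). These correlations rest on 6 points that also carry the difference between the groups, and they are given as a description. The 3 genes most like KLF4 had log2 fold changes of 0.26, 0.11 and 0.19 and did not pass the test. Of those most like FOSL2, SAP130 (-0.37) and RNF26 (-0.28) passed (adjusted p = 0.0106 and 0.0231 by edgeR's quasi-likelihood F test) and GPR153 (-0.34) did not (0.0547).

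Among other proteins that can pair with JUN or FOS, JDP2 and BATF2 rose and MAF fell. JDP2, a repressor that takes the place of FOS in dimers with JUN, rose 2.34-fold, from 24.2 ± 2.60 to 56.4 ± 4.42 CPM (adjusted p = 4.33e-09 by edgeR's quasi-likelihood F test). BATF2, a small zipper protein without an activation domain, rose 1.56-fold. MAF, a zipper protein that binds its own longer DNA element, fell by 1.01 on the log2 scale, from 7.41 ± 2.63 to 3.71 ± 0.362 CPM (adjusted p = 0.00409 by edgeR's quasi-likelihood F test). The 13 tested genes of this list had a median log2 fold change of 0.13. Across all tested genes 3.96% passed as higher and 4.12% as lower. BATF2 lost its call without control replicate 1 or 3 or any 1 knockdown library (adjusted p from 0.0649 to 0.0898 in edgeR's quasi-likelihood test), and MAF lost it without both control replicate 2 and knockdown replicate 1 (adjusted p = 0.109). Library totals as the only scaling, and DESeq2, gave 4 higher, against these 2.

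Of 26 other immediate early genes tested, 0 rose and 1 fell, where 8.08% of all tested genes passed. This count is from edgeR's quasi-likelihood test, with a median log2 fold change of -0.04 and 4 genes at an unadjusted p under 0.05, and DESeq2 and limma-voom also gave 0 higher and 1 lower. An unadjusted p under 0.05 was found in 22.2% of all tested genes. The member that fell was TNFAIP3, a brake on NF-kB signalling, from 40.9 ± 6.52 to 29.5 ± 1.28 CPM (adjusted p = 0.00602 by edgeR's quasi-likelihood F test). Without control replicate 2 its adjusted p was 0.0545, and without that library and knockdown replicate 1 it was 0.117. Library totals as the only scaling gave 2 higher, and 1 was higher without control replicate 3 or without the filter. Without the filter, and without knockdown replicate 1, 2 were lower. EGR2, EGR3, EGR4, NR4A2, ARC and DUSP2 had too few reads to be tested, EGR4 with none at all.

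On the signalling side the share of genes that passed was close to the 8.08% of all tested genes. Counts at an unadjusted p under 0.05 are to be read beside 22.2% of all tested genes. Of 25 tested genes of the MAP kinase cascades 0 rose and 2 fell in edgeR's quasi-likelihood test, with 6 at an unadjusted p under 0.05 and 0 higher and 2 lower in DESeq2 and limma-voom. MAP2K1, which phosphorylates ERK, fell from 118 ± 2.93 to 97.3 ± 4.63 CPM and MAPK7 from 25.2 ± 0.242 to 19.3 ± 1.91 CPM (adjusted p = 0.0213 and 0.0303 by edgeR's quasi-likelihood F test). Neither passed without control replicate 2 or without knockdown replicate 2 or 3, and MAPK7 did not pass without control replicate 1 or 3, or without both control replicate 2 and knockdown replicate 1, either. Library totals as the only scaling gave 1 higher, as did leaving out control replicate 2 or 3. Of 14 tested genes that follow ERK output, 1 rose and 0 fell in edgeR's quasi-likelihood test, with 6 at an unadjusted p under 0.05, 0 lower in DESeq2 and 1 lower in limma-voom and with the 1 CPM filter. The gene that rose was ETV5, an ETS factor downstream of ERK, from 67.0 ± 6.72 to 89.0 ± 2.21 CPM (adjusted p = 0.00254 by edgeR's quasi-likelihood F test), in all 16 alternatives. SPRY1, named after its values were seen, had a larger fall that did not pass (log2 fold change -1.11, adjusted p = 0.0546 by the same test). Of the 14, the groups did not overlap in 2 higher and 4 lower genes, beside 13.3% of all tested genes in each direction. Of 6 serum response factor partners 0 passed in edgeR's quasi-likelihood test, DESeq2 or limma-voom and 0 had an unadjusted p under 0.05. ELK3 had the smallest p of the 6, with a log2 fold change of 0.09.

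Among genes with described AP-1 control, 5 of 22 tested fell and 1 rose, where 4.12% of all tested genes fell and 3.96% rose. IL8, a neutrophil chemokine, fell to 0.492 of its control level and PTGS2, the inducible cyclooxygenase, to 0.568 (adjusted p = 1.14e-07 and 2.14e-06 by edgeR's quasi-likelihood F test). VEGFC, a lymphatic growth factor, fell by 0.34 and PLAUR, the urokinase receptor, by 0.37 on the log2 scale. The 22 had a median log2 fold change of -0.09. The list was chosen with earlier results of these data known, so its count beside the share of all genes is a description and no test. The fifth that fell, MMP9, and the integrin ITGA2, which rose by 0.38 on the log2 scale, were named after their values were seen. Without knockdown replicate 2 the genes that fell numbered 3, with PLAUR at an adjusted p of 0.0647, and ITGA2 did not pass without control replicate 3 or knockdown replicate 2 or 3. IL8 and PTGS2 also answer to NF-kB.

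**Figure D5:**
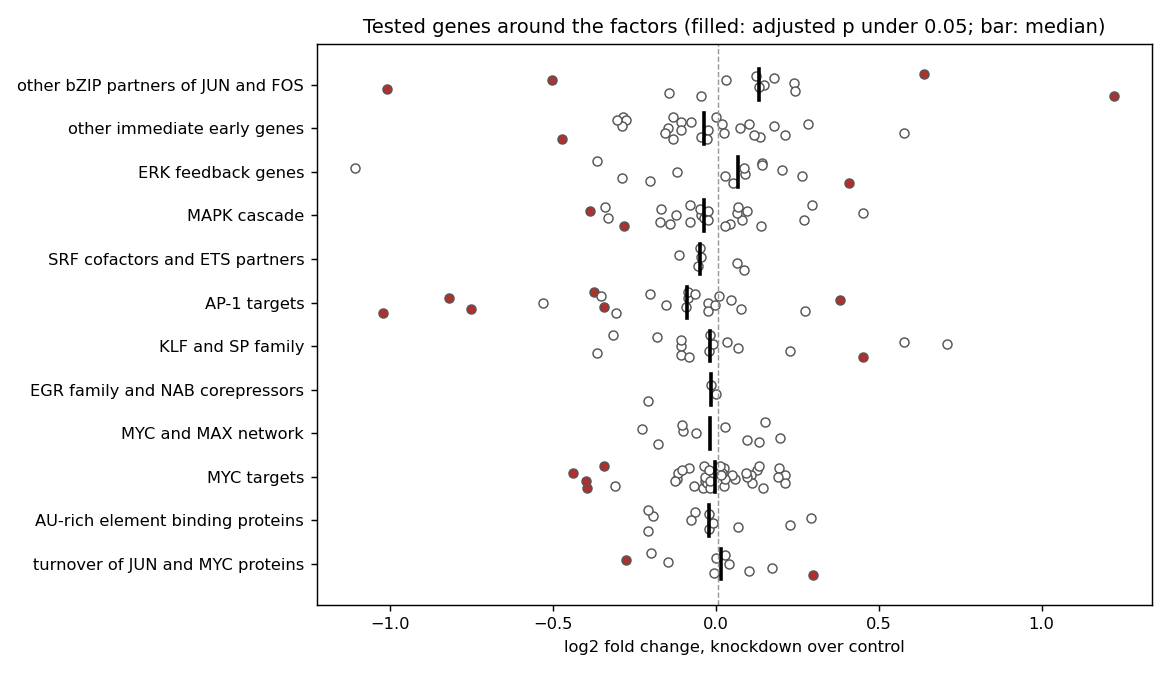
Log2 fold change of knockdown over control (x axis) for every tested gene of 12 lists around the factors (y axis), 1 point per gene, filled where the adjusted p was under 0.05, with the list median as a bar and the median of all 12305 genes as a dashed line. The list medians lie between -0.09 and 0.13, and JDP2 at 1.22 and IL8 at -1.02 are the farthest filled points.

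Of the relatives and partners of KLF4, EGR1 and MYC, 1 passed the test, a count to be read beside the 8.08% of all tested genes. For an unadjusted p under 0.05 the share of all tested genes was 22.2%. Of 16 tested KLF and SP genes 1 rose and 0 fell in edgeR's quasi-likelihood test, with 6 at an unadjusted p under 0.05 and 0 lower in DESeq2 and limma-voom. The gene that rose was KLF9, a hormone-responsive factor, from 96.0 ± 8.32 to 131 ± 9.19 CPM (adjusted p = 8.08e-04 by edgeR's quasi-likelihood F test), in all 16 alternatives. Library totals as the only scaling gave 2 higher. Of 3 tested EGR1 relatives and NAB corepressors, and of 10 tested genes of the MYC and MAX network, 0 passed in edgeR's quasi-likelihood test, DESeq2 or limma-voom, and 0 had an unadjusted p under 0.05. WT1 had the smallest p of the former (log2 fold change -0.21), and MLX, a MAX-like protein that pairs with sugar-sensing factors, of the latter (-0.18).

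Of 38 tested growth genes with described MYC control 0 rose and 4 fell in edgeR's quasi-likelihood test (3.96% and 4.12% of all tested genes), with a median log2 fold change of 0.00, 8 genes at an unadjusted p under 0.05 (22.2% of all tested genes) and 0 higher in DESeq2 and limma-voom. They were the chaperonin partner HSPE1, lactate dehydrogenase LDHA, the ribosome assembly factor GRWD1 and the spermidine synthase SRM, with log2 fold changes of -0.40, -0.44, -0.40 and -0.34. LDHA, which is also a hypoxia gene, fell from 3983 ± 239.8 to 2939 ± 391 CPM (adjusted p = 0.00582 by edgeR's quasi-likelihood F test). Without knockdown replicate 3, GRWD1 and SRM lost their calls (adjusted p = 0.0712 and 0.141 by edgeR's quasi-likelihood F test), which left 2. GRWD1 also lost its call without both control replicate 2 and knockdown replicate 1 (adjusted p = 0.0517). SRM, whose groups overlapped, also lost its call without control replicate 1 or 3 or knockdown replicate 2, and 1 gene was higher without control replicate 1.

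Genes that set how long these messages and proteins last were tested last. Their counts are to be read beside the 8.08% of all tested genes that passed, 3.96% higher and 4.12% lower. For an unadjusted p under 0.05 that share was 22.2%. Of 11 proteins that bind AU-rich elements, the marks of short-lived mRNAs, 0 passed in edgeR's quasi-likelihood test, DESeq2 or limma-voom, 5 had an unadjusted p under 0.05, and 1 was higher without control replicate 2, with knockdown replicate 1 left out or kept. ELAVL1, a stabiliser, had the smallest p, at 131 ± 5.14 and 114 ± 3.76 CPM (adjusted p = 0.0954 by edgeR's quasi-likelihood F test). Of 10 genes that act on the turnover of JUN and MYC proteins, 1 rose and 1 fell: the kinase GSK3B rose by 0.30 and the ubiquitin ligase subunit SKP2 fell by 0.27 on the log2 scale (adjusted p = 0.0237 and 0.0243 by edgeR's quasi-likelihood F test). GSK3B lost its call without control replicate 2 or knockdown replicate 2 or 3 or without both control replicate 2 and knockdown replicate 1 (adjusted p from 0.0674 to 0.133), and SKP2 without control replicate 1 or any 1 knockdown library, or without that same pair (adjusted p from 0.0528 to 0.103).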

How the data were processed

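Raw read counts per gene for 6 libraries were taken from the deposited table. Per the submitters' processing notes the authors used fastp 0.20.0, STAR 2.7.9a, featureCounts 2.0 and DESeq2 on hg19. Settings, annotation release and strandedness of counting are not stated in the sources used here. A further 6 columns of DESeq2-normalised values were not used, and 2 emptied lines were not analysed here. Groups follow the genotype label. Genes passing edgeR's filterByExpr (12305, the removed ones holding 0.0556% of counts) were scaled by TMM (factors 0.987 to 1.01) and compared with edgeR 4.0.16 in R 4.3.3 (glmQLFit with robust dispersion, glmQLFTest, group alone, two-sided), with Benjamini-Hochberg adjustment over all 12305 genes and a threshold of 0.05. SE was derived as |log2 fold change| / √F. Intervals use the test's degrees of freedom. CPM use the scaled library size. TPM were computed here from exon lengths of GENCODE 29 (GRCh38 models, matched by identifier, 19508 genes).

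Named genes are the 10 members, ALKBH3, up to 4 called genes of each of 14 lists with the smallest adjusted p (or, with no call, the gene with the smallest p) and the 3 genes most like each called member. One named gene of the lists is not reported here. The members and lists were chosen with earlier results of these data known. The fit was tested on simulated data. Alternatives were 2 other scalings, 2 other filters, DESeq2 1.42.0, limma 3.58.1 (voom, and trend on log2 of the normalised count plus 1), non-robust dispersion, a replicate block, and libraries left out.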

Additional observations from a re-analysis of the deposited data

How the results depend on the processing

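FOSL2 and KLF4 kept direction and call in all 16 alternatives. Leaving out 1 library, the genes higher in the knockdown numbered from 312 to 433 and those lower from 285 to 423, the members higher from 1 to 2 and lower from 1 to 3. Under the same omissions FOSL1 ranged from -0.32 to -0.15, JUN from -0.33 to -0.16 and JUND from 0.09 to 0.43 (log2), FOSL1 and JUN past the threshold at the lower end and JUND at the upper, and FOSB ranged from -0.17 to 0.37 and so changed sign. Without both control replicate 2 and knockdown replicate 1, 3 members were lower, FOSL1 was at -0.42 and JUN at -0.35, both past the threshold, JUND was at 0.0739 and FOSB at -0.41. The cause was not tested. FOS was not tested with the 1 CPM filter, which removed it. Library totals as the only scaling moved the median of all genes from 0.01 to 0.03 and the share of calls that were higher from 49% to 59.4%.

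Replicate numbers are shared by the groups, but nothing in the labels says that they pair libraries, and the deviations of same-numbered libraries correlated at 0.06, 0.11 and -0.06. With a replicate block 1 member was higher and 1 lower, with KLF4 at 0.90 and FOSL2 at -0.41. The block also gave 4 other zipper partners higher (2 without it), 1 immediate early gene higher and 2 lower (0 and 1 without it) and 1 ERK feedback gene lower (0 without it). The normalised counts for limma-trend were recomputed from the raw counts. With gene spans in place of exon lengths, an alternative chosen after seeing the data, JUN held 77.0% of the JUN family in controls and 70.4% in the knockdown. FOS and FOSB, with 7 to 38 reads per library, were limited by depth.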
